A study of Mus musculus with 6 samples.

Results

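D-lactate, L-lactate and pyruvate handling was followed through 10 genes in the left ventricle of PTIP knockout and control mice (PTIP is the protein of the gene Paxip1). The genes are the D-lactate dehydrogenase Ldhd, the L-lactate dehydrogenases Ldha and Ldhb, the monocarboxylate transporters Slc16a1 and Slc16a3, the methylglyoxal enzymes Glo1 and Hagh, and Pdha1, Pdk1 and Pdk2 of the pyruvate dehydrogenase step. They were chosen by function around Ldhd, a gene already known to differ between these groups, so their differences between knockout and control are given as a description and support nothing. All 10 were found among the 18193 genes of the array, through 24 probe sets that the platform annotation ties to a single gene.

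The 6 mice were female littermates, aged 8 weeks, of mixed C57B6 and B6129 background, and RNA of the left ventricular apex of each was put on 1 array. The 3 knockout mice (labelled PTIP KO) had a floxed and a null PTIP allele plus a transgene for a fusion of Cre recombinase with a modified estrogen receptor, driven by the cardiac alpha myosin heavy chain promoter. The 3 controls (labelled PTIP+) kept a wild-type allele beside a floxed one. No Cre transgene is named for the controls, so both the transgene and the null allele came with the knockout group. Both groups were given tamoxifen, at 20 mg/kg into the peritoneum, and hearts were taken 5 days after it according to the sample names, while the treatment text speaks of dosing for 5 days. The promoter limits the deletion to cardiomyocytes, and the tissue also holds other cells.

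Lactate exists as mirror-image forms. L-lactate is made from pyruvate and turned back to it by the cytosolic lactate dehydrogenase tetramers of Ldha and Ldhb subunits, and it crosses membranes with a proton through monocarboxylate transporters, a large route of fuel supply to the working heart. D-lactate comes mainly from methylglyoxal, a reactive by-product of glycolysis. Glyoxalase 1 (Glo1) acts on the adduct of methylglyoxal with glutathione, and glyoxalase 2 (Hagh) then releases D-lactate. Ldhd oxidises D-lactate to pyruvate in mitochondria. Pyruvate enters the citric acid cycle through the pyruvate dehydrogenase complex, which Pdk kinases switch off and Pdp phosphatases switch on.

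The start regions of 4 of these genes (Ldhd, Ldha, Slc16a1 and Pdk2) are shown because they hold the letters CACGTG, the E-box sequence. Their differences between knockout and control on the brightest probe set were 1.66, 0.01, -0.31 and 0.13. A link between the E-box and these values was not tested. Each sequence runs 5′ to 3′ along the gene over 300 bases, from 250 before to 50 after a RefSeq start on GRCm38.p6, and capitals mark the E-box and 2 shorter cores, ACGTG (which lies within the E-box) and, apart from it, GCGTG, each searched on both strands.
Ldhd, chr8:111630287-111630586, minus strand: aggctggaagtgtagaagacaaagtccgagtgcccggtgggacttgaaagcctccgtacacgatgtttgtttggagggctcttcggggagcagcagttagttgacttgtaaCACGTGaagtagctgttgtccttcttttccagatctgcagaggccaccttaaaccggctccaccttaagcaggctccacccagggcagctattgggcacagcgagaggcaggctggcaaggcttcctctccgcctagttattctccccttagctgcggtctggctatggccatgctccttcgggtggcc
Ldha, chr7:46845554-46845853, plus strand: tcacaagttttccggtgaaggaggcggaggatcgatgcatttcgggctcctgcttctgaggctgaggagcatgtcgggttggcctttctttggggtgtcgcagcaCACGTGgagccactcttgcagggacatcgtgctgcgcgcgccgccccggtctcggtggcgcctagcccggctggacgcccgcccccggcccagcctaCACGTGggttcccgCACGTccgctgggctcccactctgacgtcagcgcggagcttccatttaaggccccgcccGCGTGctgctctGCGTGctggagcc
Slc16a1, chr3:104638414-104638713, plus strand: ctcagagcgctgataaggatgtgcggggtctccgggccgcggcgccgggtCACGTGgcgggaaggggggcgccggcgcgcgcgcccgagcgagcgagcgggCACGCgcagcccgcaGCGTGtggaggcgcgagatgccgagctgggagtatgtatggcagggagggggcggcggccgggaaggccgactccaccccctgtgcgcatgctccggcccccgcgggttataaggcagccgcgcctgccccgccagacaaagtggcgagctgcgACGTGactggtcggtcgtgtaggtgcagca
Pdk2, chr11:95041322-95041621, minus strand: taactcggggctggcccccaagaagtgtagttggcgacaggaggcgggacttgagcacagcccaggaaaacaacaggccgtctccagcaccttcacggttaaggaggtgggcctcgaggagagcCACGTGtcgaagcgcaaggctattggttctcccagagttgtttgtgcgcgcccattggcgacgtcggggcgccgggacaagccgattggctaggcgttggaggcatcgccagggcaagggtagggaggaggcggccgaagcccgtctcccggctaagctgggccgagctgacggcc
The single E-box of Ldhd begins 139 bases before the start, that of Slc16a1 200 bases and that of Pdk2 126 bases before it, and Ldha has a pair, at 145 and 48 bases. The E-box occurred in 7.15% of 32851 such windows of the genome and in 4 of the 14 windows of the members. These 4 genes are the only ones of the 10 members that have CACGTG in such a window. The core ACGTG occurred in 19.6% of all windows and in 5 of the 14, from 5 members. The core GCGTG occurred in 32.4% of all windows and in 8 of the 14, from 6 members. AAGGTCA, the extended half-site of estrogen-related receptors, was in none of the 14 and in 4.72% of all windows. The Ldhd window held 11 CpG dinucleotides, as did that of Glo1, against 42 in Slc16a1, 36 in Slc16a3 and a median of 7 over all windows. These matches describe letters only, were not compared at like CpG content and do not show binding.

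Arrays and labels were checked first. Correlations between arrays over all probe sets lay between 0.989 and 0.995. Control 1 stood somewhat apart: its actin control read 1.85 log2 units more at the 3' than at the 5' end, a gap that widens with RNA degradation, against 1.17 to 1.64 on the other arrays, and limma gave it the lowest array weight (0.43). Without it the Ldhd difference was 1.74 and that of Slc16a1 -0.28. All 4 Paxip1 probe sets were lower in every knockout mouse than in every control. Probe set 1423303_at of Paxip1 differed by -1.83 (SE 0.17, limma adjusted p = 0.0240), 1423302_a_at by -1.58 (limma adjusted p = 0.0377) and 1454943_a_at by -1.54 (limma adjusted p = 0.0299). The brightest, 1434363_x_at, differed by -0.95 and did not pass (limma adjusted p = 0.106). Which part of the gene the deletion removes is not stated in the labels. The defining cardiomyocyte markers were bright on all arrays (6 of 6 measured, means 12.6 to 13.67), and their summed log2 level was 15.76 to 15.82 in knockout mice and 15.78 to 15.82 in the controls. Such levels are near the top of the scale, where differences can be compressed, so the sums do not show equal cardiomyocyte content.

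Ldhd rose in the knockout ventricle. Its brightest probe set, 1428614_at, read 10.59, 10.57 and 10.45 in knockouts 1, 2 and 3, and 9.03, 8.49 and 9.10 in controls 1, 2 and 3 (log2 RMA values, in which 1 unit is a doubling). All 3 knockout mice lay above all 3 controls, and the gap between the lowest knockout and the highest control was wider than the spread within either group. The means were 10.54 ± 0.08 and 8.87 ± 0.34 (SD, n = 3 each), a log2 difference of 1.66 (SE 0.17, 95% interval 1.25 to 2.07), or 3.17-fold. Among the controls, control 2 was the lowest and set most of their spread. In a bulk tissue, more Ldhd RNA per cell and more cells that express it cannot be told apart.

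The second Ldhd probe set, 1428613_at, gave a like difference. It read 9.69, 9.21 and 9.35 in the knockout mice against 7.85, 7.61 and 7.84 in the controls, again without overlap. The difference was 1.65 (SE 0.15, 95% interval 1.29 to 2.01). Both probe sets carry the same source accession in the annotation and were read on the same 6 arrays, so they are not independent measurements of the gene. Of the 18193 genes, 15 had a larger positive difference than Ldhd on their brightest probe set. Ldhd was chosen because it differed in this contrast, so nothing is read from that rank.

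**Figure D1:**
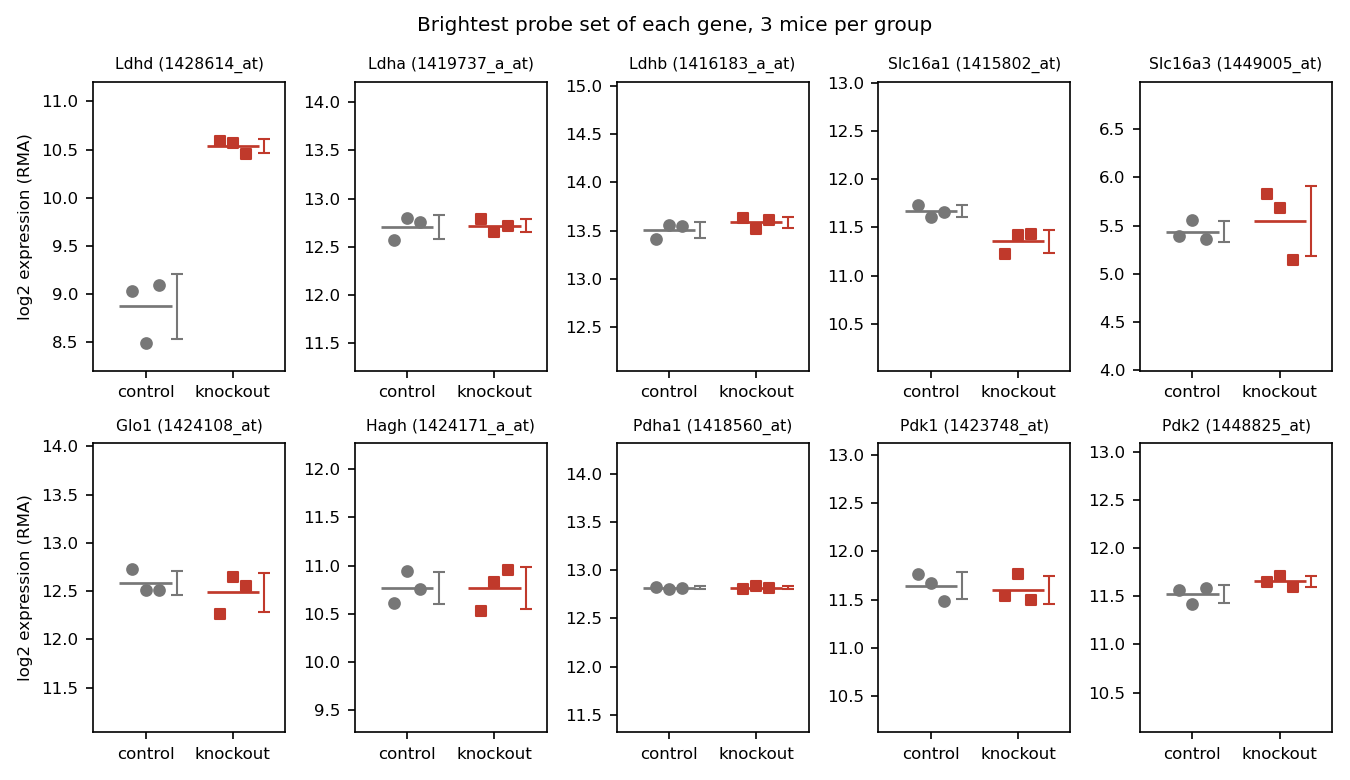
Log2 expression (RMA) of the brightest probe set of each of the 10 genes in 3 control mice (grey circles) and 3 knockout mice (red squares). Horizontal lines are group means, bars are ± 1 SD, and each panel spans the same 3 log2 units. Ldhd is at 10.54 in knockout mice and 8.87 in the controls, while the means of the other 9 genes differ by 0.31 or less.

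Counted by the rule that a limma adjusted p under 0.05 is a call, Ldhd was the only member called, 1 of 10, where 0.286% of all genes were called (52 of 18193) and 0.110% were called higher. Ldhd entered the set because of that call, so nothing is read from the count. Leaving out any single mouse ended the call. Those smaller fits called 0 to 21 probe sets in all, against 86 with all arrays, and the Ldhd difference in them lay between 1.47 (without control 2) and 1.78 (without control 3). By sign, 6 members were higher and 4 lower, with a median difference of 0.004 against 0.022 over all genes. Without Ldhd, the other 9 spanned -0.31 to 0.13.

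The L-lactate dehydrogenases differed little between the groups. Ldha, the subunit that predominates in skeletal muscle, read 12.79, 12.65 and 12.72 in knockout mice and 12.57, 12.80 and 12.76 in the controls. The groups overlapped fully, with a difference of 0.01 (SE 0.11) and a 95% interval from -0.26 to 0.27, so the arrays leave room for a level between 0.835 and 1.21 times that of the controls. Ldhb, the subunit that predominates in heart, read 13.63, 13.52 and 13.61 against 13.41, 13.56 and 13.55 on its brightest probe set. Its difference was 0.08 (SE 0.11, 95% interval -0.17 to 0.33), and its other 3 probe sets differed by 0.05 to 0.08, of which 1455235_x_at did not overlap between groups as deposited. Which Ldhb probe sets were free of overlap changed with the scaling: 1434499_a_at alone after renewed quantile normalization, and the other 3 with each array centred on its median. Control 1 was the lowest mouse for Ldhb on all 4 probe sets and for Ldha. Values of 13 and above are near the top of the scale of these arrays, whose highest value was 14.3, and differences there can be compressed. Ldhc and Ldhal6b, further members of the L-lactate dehydrogenase family known from the testis, were dim, with means of 3.67 and 2.66 where the median over all probe sets was 5.19, and they overlapped between groups.

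Of the transporters, Slc16a1 was lower in the knockout mice on both of its probe sets without being called. Slc16a1 encodes MCT1, which carries lactate, pyruvate and ketone bodies in either direction and is the main such transporter of cardiomyocytes. It read 11.22, 11.42 and 11.43 in the knockout mice against 11.73, 11.61 and 11.66 in the controls. The groups did not overlap, with a difference of -0.31 (SE 0.11, 95% interval -0.57 to -0.05, not corrected for the number of genes). The dimmer probe set 1446274_at read 6.13, 6.68 and 6.73 against 7.54, 6.91 and 6.87, a difference of -0.59 (SE 0.23). On it the groups lay close, and knockout 1 and control 1 made most of the difference. Values of Slc16a3, which encodes MCT4, the transporter of strongly glycolytic cells, were dim and scattered: 5.83, 5.68 and 5.14 in the knockout mice against 5.39, 5.56 and 5.36. Its difference of 0.11 (SE 0.19, 95% interval -0.33 to 0.55) was smaller than the range among the knockout mice.

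Summed markers of macrophages and adipocytes separated the groups, so they lie beside both the Ldhd and the Slc16a1 values. Of 5 macrophage markers, 3 (Csf1r, Adgre1 and Mrc1) were lower in all knockout mice than in all controls and none was called. The summed log2 level of these 5 markers was 11.88 to 12.32 in knockout mice and 12.41 to 12.52 in the controls. Among 3 measured adipocyte markers, Cidea, which is also bright in this heart tissue, was lower without overlap by a difference of -0.76, while the fat markers Adipoq (0.23) and Ucp1 (-0.29) lay under the median level and overlapped. The summed adipocyte level, 8.87 to 9.07 against 9.36 to 10.01, follows Cidea, by far the brightest of the 3. Fibroblast sums overlapped between groups, at 13.52 to 13.62 against 13.54 to 13.64, as did endothelial sums, at 13.42 to 13.49 against 13.34 to 13.53, though the endothelial marker Cdh5 was lower without overlap (-0.16). The mesothelial markers Msln, Upk3b and Wt1 differed by -0.81, -1.07 and -0.44 with wide overlap, their sums running from 8.15 to 9.79 in the knockout mice and 8.97 to 9.77 in the controls. Of the 6 cardiomyocyte markers, Actn2 was higher without overlap (0.16). None of these markers was called, and their part in the Ldhd and Slc16a1 values was not tested.

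The enzymes that make D-lactate, Glo1 and Hagh, were not called. Glo1 read 12.26, 12.65 and 12.55 in the knockout mice against 12.73, 12.51 and 12.51, a difference of -0.09 (SE 0.14, 95% interval -0.43 to 0.24). Knockout 1 was its lowest mouse and control 1 its highest, and the other 3 Glo1 probe sets differed by -0.13 to -0.05. Hagh read 10.53, 10.83 and 10.95 against 10.61, 10.94 and 10.76 on its brightest probe set, a difference of 0.00 (SE 0.15, 95% interval -0.35 to 0.35). Its other probe sets gave 0.13 for 1437519_x_at and 0.18 for 1424172_at, both without overlap between the groups. Each of these lost that gap in 1 of the 2 other scalings tried, the first with renewed quantile normalization and the second with each array centred on its median. Over all their probe sets, the 95% intervals reached from -0.61 to 0.37 for Glo1 (both ends from 1424109_a_at). For Hagh they reached from -0.35 (1424171_a_at) to 0.44 (1424172_at).

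**Figure D2:**
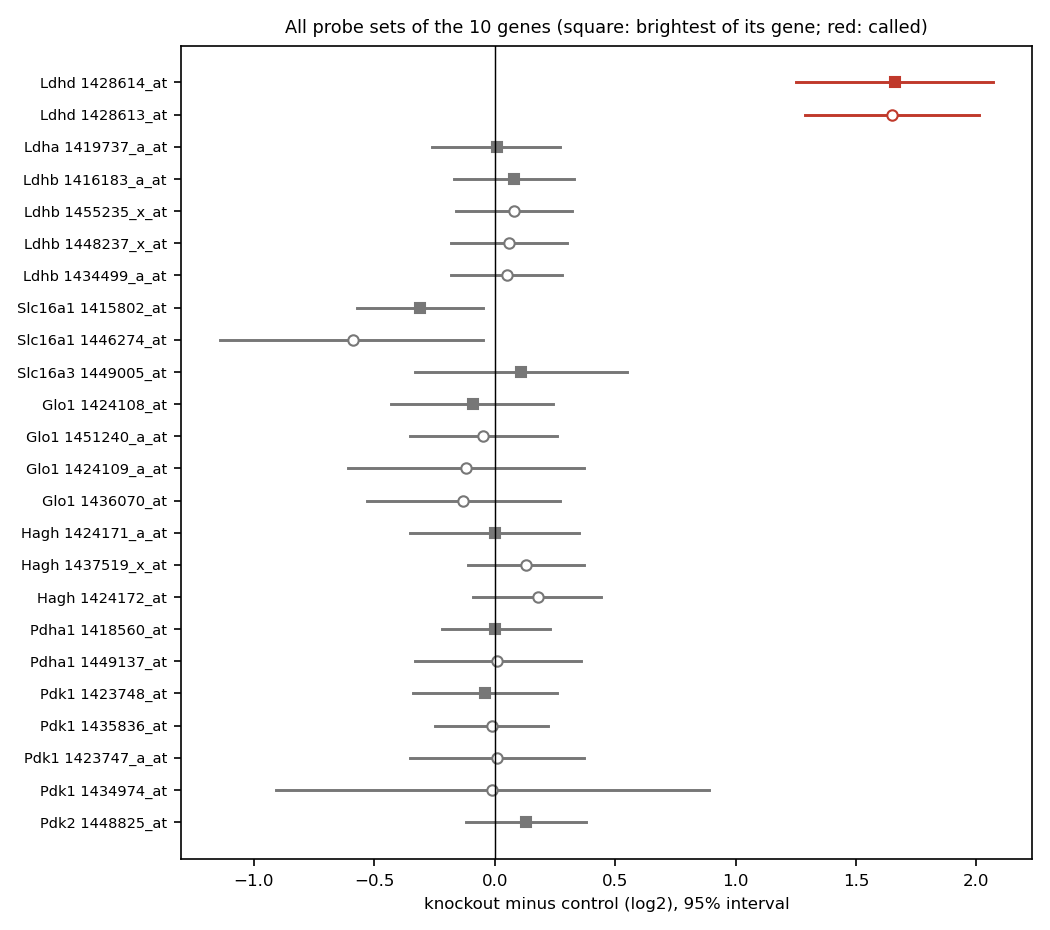
Difference between knockout and control mice (log2) with its 95% interval for all 24 probe sets of the 10 genes, 3 mice per group. Squares are the brightest probe set of a gene, open circles the others, and red marks the called probe sets. Both Ldhd probe sets lie near 1.65 and the other 22 between -0.59 and 0.18.

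At the pyruvate dehydrogenase step, the brightest Pdha1 probe set hardly varied between mice. Pdha1, the catalytic alpha subunit that the kinases phosphorylate, read 12.80, 12.84 and 12.82 in knockout mice and 12.83, 12.80 and 12.82 in the controls. Its pooled SD within groups was 0.020, where the median gene had 0.172, and the difference was 0.00 (SE 0.10, 95% interval -0.22 to 0.23). Its SE includes the variance that limma shares across genes. These values are also near the top of the scale, where spread and differences can be compressed. The second Pdha1 probe set, 1449137_at, was dimmer and varied more, from 10.69 to 11.06 in the knockout mice and 10.72 to 11.04 in the controls (SD 0.20 and 0.17), with a difference of 0.01.

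Neither kinase among the members was called. Pdk1, a kinase gene induced by low oxygen in many cells, read 11.54, 11.77 and 11.50 against 11.77, 11.67 and 11.49, with a difference of -0.04 (SE 0.13), and its other 3 probe sets lay between -0.01 and 0.01. The dimmest of them, 1434974_at, ran from 6.50 to 7.73 among the knockout mice and from 6.31 to 7.28 among the controls, so it carries little information (95% interval -0.91 to 0.89). Pdk2, the kinase isoform found in most tissues, read 11.65, 11.71 and 11.60 against 11.56, 11.42 and 11.59. Its groups were separated by a gap of about the last printed digit, and the difference was 0.13 (SE 0.11, 95% interval -0.12 to 0.38). With renewed quantile normalization the Pdk2 groups overlapped.

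Over the brightest probe sets, the groups thus did not overlap for 3 of the 10 members, 2 higher and 1 lower, where 16.0% of all genes had groups that did not overlap (9.44% higher and 6.57% lower). Without Ldhd, which entered the set because it differed, 1 of the other 9 was higher and 1 lower (22.2%). The gap held for Ldhd and Slc16a1 under both other scalings. After renewed quantile normalization these were the only members without overlap, 1 higher and 1 lower, against 1693 and 1309 of all genes. With each array centred on its median, Ldhb joined Ldhd, Pdk2 and Slc16a1, and 3 members were higher and 1 lower. The share over all genes then also moved, to 12.9% higher and 3.93% lower.

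The rest of the pathway was read from a list of 44 other genes, of which 41 were analysed here. None was called by limma over all probe sets, and 9 had an unadjusted limma p under 0.05, 4 higher and 5 lower (22.0%, where the share over all genes was 9.27%). Of the 41 genes, 33 lay above the median level of all probe sets. The shares over all genes given here were not matched for level. The median difference was 0.035, and 23 genes were higher and 18 lower by sign. The groups did not overlap for 6 genes that were higher and 5 that were lower (26.8%, where the share over all genes was 16.0%), which became 9 and 4 with arrays centred on their medians, where all genes moved the same way (12.9% higher and 3.93% lower).

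The 4 genes of that list with the smallest p were Slc16a4, Gpt2, Pdp1 and Me2. Slc16a4, a relative of the lactate transporters, read 7.47, 7.36 and 7.44 in the knockout mice against 7.83, 7.84 and 7.89 in the controls. The difference was -0.43 (SE 0.10, limma adjusted p = 0.231). Its groups were well apart, though the second Slc16a4 probe set was dim and overlapped. For Gpt2, the mitochondrial alanine aminotransferase that exchanges pyruvate and alanine, the brightest probe set averaged 10.45 ± 0.04 against 10.90 ± 0.13 (SD, n = 3 each), a difference of -0.45 (SE 0.11, limma adjusted p = 0.269). Its other 3 probe sets differed by -0.51 to -0.35 and overlapped, with control 1 the lowest control on each.

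Pdp1, the phosphatase that reactivates pyruvate dehydrogenase, was lower on both of its probe sets. It read 9.09, 9.18 and 9.18 in the knockout mice against 9.53, 9.51 and 9.56 in the controls, a difference of -0.39 (SE 0.10, limma adjusted p = 0.280), and the second probe set differed by -0.57 (SE 0.13, limma adjusted p = 0.221). Neither probe set overlapped between groups and neither passed. Me2, the mitochondrial malic enzyme, which makes pyruvate from malate, differed by 0.47 on 1426572_at (SE 0.14, limma adjusted p = 0.379), while its other 3 probe sets ran from -0.24 to 0.16. Gpt, the other alanine aminotransferase gene, was at -0.41 and -0.47 on its pair of probe sets without overlap (limma adjusted p = 0.544 and 0.419).

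Core genes of pyruvate use were not called either. Mpc1, a subunit of the mitochondrial pyruvate carrier, differed by 0.09 (SE 0.11). The complex subunits Pdhb, Dlat, Pdhx and Dld differed by 0.06, 0.03, -0.05 and -0.17 on their brightest probe sets, with Dld overlapping between groups. A second, dim Dld probe set with a mean of 2.54 differed by -0.38 without overlap (limma adjusted p = 0.461). Pdk4, the kinase isoform that rises with fasting and fatty acid supply, read 12.24, 12.67 and 12.78 against 12.72, 13.07 and 12.58, a difference of -0.23 (SE 0.19) with overlapping groups. Around methylglyoxal, Haghl, a gene related in sequence to Hagh, differed by 0.58, 0.61 and 0.80 on 3 probe sets without overlap and by -0.06 on the fourth, none of them called (limma adjusted p = 0.335 to 0.967). Control 1 was the lowest mouse on those 3. On the brightest, 1428584_a_at, it read 6.61 against 7.28 and 7.27 in controls 2 and 3. D2hgdh, which oxidises D-2-hydroxyglutarate and belongs to the same flavoprotein family as Ldhd, differed by 0.01 (SE 0.17).

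**Figure D3:**
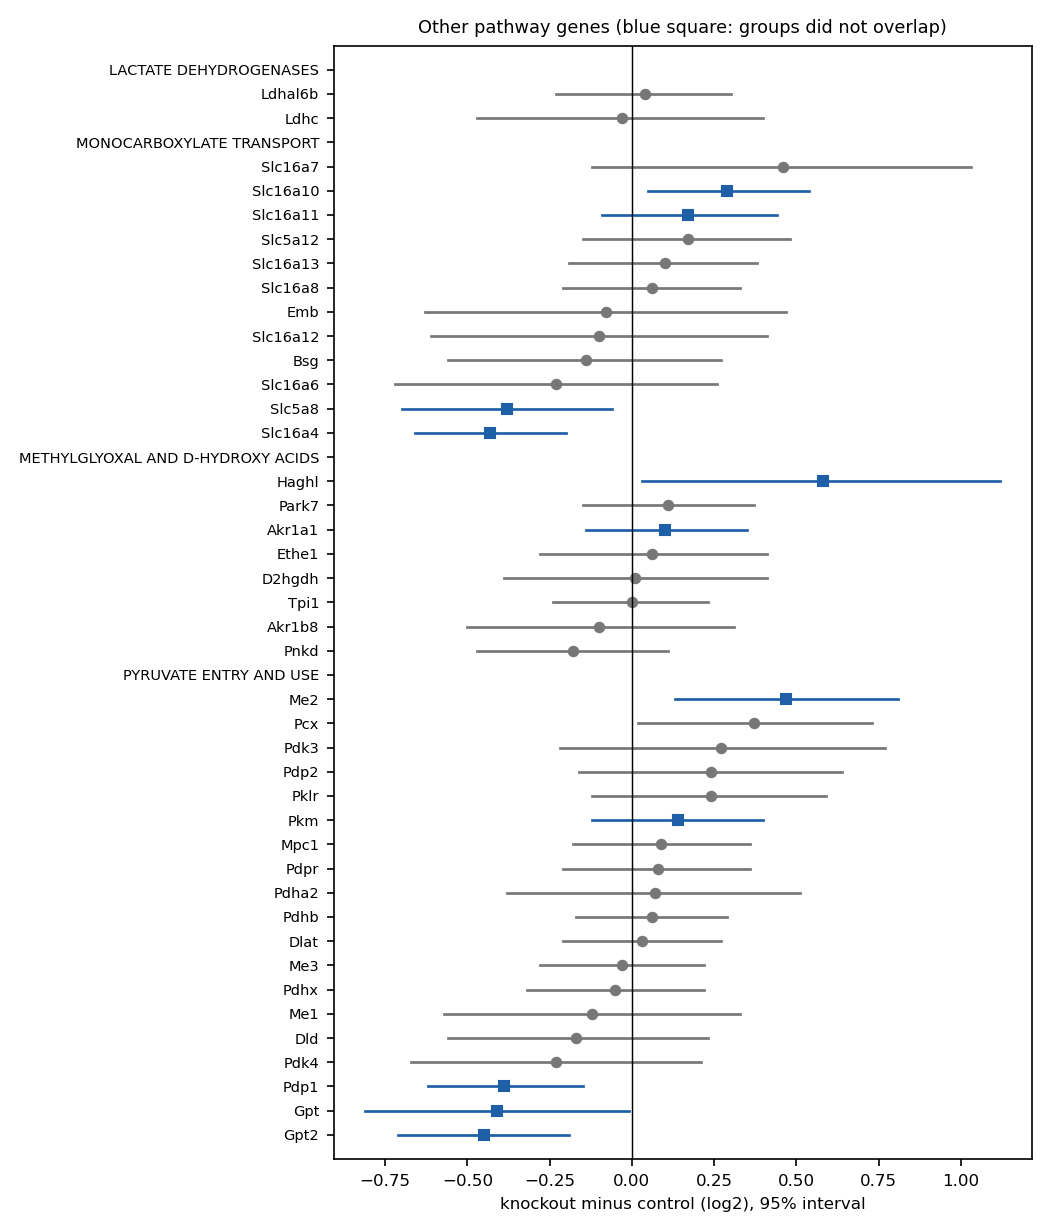
Difference between knockout and control mice (log2) with its 95% interval for the brightest probe set of 41 other genes of lactate, pyruvate and methylglyoxal handling, ordered by difference within each role. Blue squares are the 11 genes whose groups did not overlap and grey circles the other 30, and the differences run from -0.45 to 0.58.

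Genes with a pattern like that of Ldhd were ranked by Pearson's r over the 6 arrays among 11508 genes brighter than the median. The closest were Tprgl (r = 0.9923), Clba1 (r = 0.9922), Fam3a (r = 0.9917), Map2k6 (r = 0.9890) and 2900052N01Rik (r = 0.9865), and 90 genes had r above 0.95. Such values mostly follow the gap between the groups, since the arrays share mice and group. Their sizes differed widely. Map2k6, a kinase that activates p38, differed by 0.25, Tprgl by 0.14 and Fam3a by 0.18, against 1.22 for Clba1 and 3.91 for 2900052N01Rik, a transcript known by its clone name. Among the other members, r with Ldhd was 0.86 for Pdk2 and -0.85 for Slc16a1, and between -0.28 and 0.47 for the rest.

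The Ldhd difference was recomputed in 16 other settings and lay between 1.47 and 1.78 in all of them. With the variance trend, the robust prior, the filters on level and the replicate block it cannot move from 1.66. Those settings change only the variance or the probe sets tested, so their equal values do not show stability. Ldhd was called in 8 of 10 settings that changed the model, the filter, the scaling, the arrays or the gene summary. It was called in none of the 6 that left out a mouse. The exceptions among the 10 were the fit with the replicate number as a term and the fit on the 4 arrays with a like description number, where the knockout arm is 1 mouse, assumed to vary like the controls, and limma called no probe set (2348 at an unadjusted p under 0.05), so its lost call says nothing about stability.

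**Figure D4:**
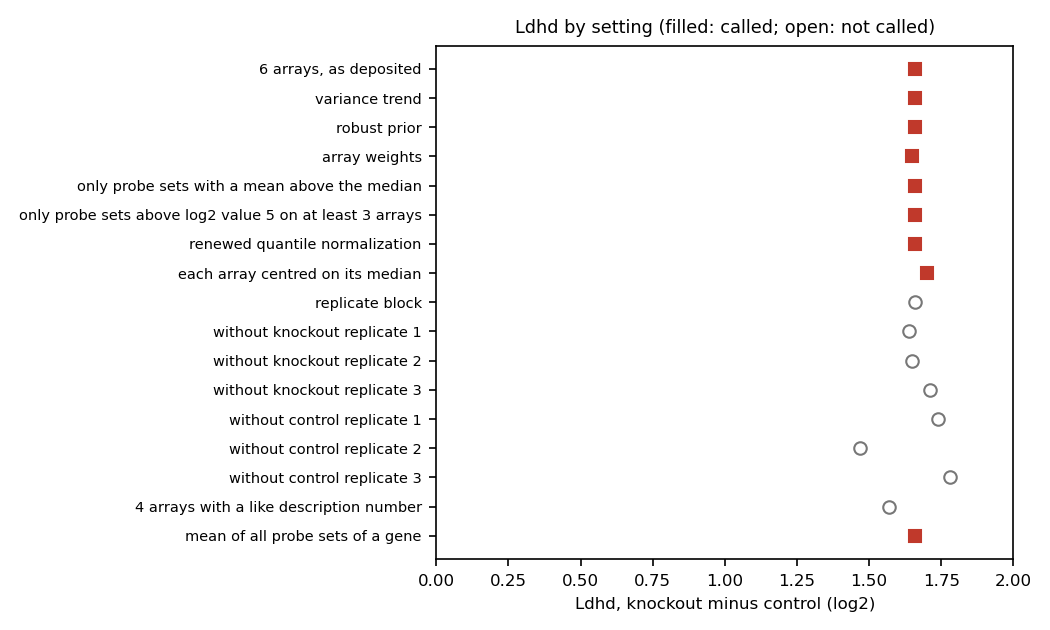
Ldhd difference between knockout and control mice (log2, axis from 0) with all 6 arrays as deposited and in 16 other settings. Filled red squares are settings in which limma called it and open grey circles those in which it did not, and all values lie between 1.47 and 1.78. The value cannot move with the variance trend, the robust prior, the filters on level or the replicate block.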

How the data were processed

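The authors deposited 1 table of log2 expression values made with RMA (background correction, normalization between arrays and summary of probes), per the submitters' processing notes. No version is stated in the sources used here. That the scale is log2 follows from its range, 1.36 to 14.3. Target was labelled with the NuGen Ovation system, per the labels. Normalization between arrays hides a change in total RNA, and RMA compresses dim probe sets.

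Of 45101 probe sets, 64 controls were left out. The annotation tied 34945 of the other 45037 to 1 gene and 932 to several, and 9160 stayed unnamed. Symbols were updated by Entrez identifier with RefSeq genes of GRCm38.p6 (34741 matched). The brightest probe set over all arrays represents a gene, and all others of a member were read beside it.

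Groups were compared over all probe sets with limma 3.58.1 in R 4.3.3 (lmFit, eBayes, group as the only term, two-sided, Benjamini-Hochberg adjustment, adjusted p under 0.05 as a call), checked on simulated data. The number of arrays limits precision: the median SE of a log2 difference was 0.147. An exact permutation test of 3 against 3 mice cannot go below p = 0.1. The mice are labelled as separate animals. Members and lists were chosen with earlier results of these data known. Named genes are all members, every Paxip1 probe set, the 4 genes of the pathway list with the smallest p and the 5 most like Ldhd, and other pathway genes by role. In the pathway list 3 genes, and 5 of the marker genes, were not analysed here. Start regions came from the RefSeq table of promoters.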

Additional observations from a re-analysis of the deposited data

Results flagged for a closer look

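The array carries 4 control probe sets for Pcx, the gene of pyruvate carboxylase, which were outside the comparison. The one at the 3' end, AFFX-PyruCarbMur/L09192_3_at, read 8.13, 7.83 and 8.08 in knockout mice and 7.72, 7.66 and 7.79 in the controls, a difference of 0.29 with all knockout mice above all controls. The other 3 were dim and overlapped between groups, with differences of 0.09 to 0.13. The ordinary Pcx probe set, 1416383_a_at, differed by 0.37 (SE 0.15, limma adjusted p = 0.527), with overlap. The difference in the control probe sets was not tested.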

How the results depend on the processing

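The count of called probe sets, 86 (30 higher, 56 lower), was 185 with a variance trend, 51 with a robust prior and 204 with array weights, and 90 with each array centred on its median, where 43 were higher and 47 lower. With limma it was 0 with the replicate block (3392 at an unadjusted p under 0.05) and 0 on the 4 arrays that share the first digits of the description number, knockout 3 and the controls (2348 at that p). Leaving out 1 mouse gave 0 (without knockout 1, 3790 at that p, and without control 2, 3532 at that p) to 21. The count of called members, 1, was 0 with the replicate block, 0 on those 4 arrays and 0 to 0 without each mouse. No gene of the pathway list was called in any of 16 settings. Deviations of same-numbered mice from their group means had correlations of -0.15, -0.08 and -0.01. With 3 mice per group these cannot decide whether equal numbers mark a pair, and the labels do not say.

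The Ldhd difference was 1.57 on the 4 arrays, 1.66 with the replicate block (which cannot move it) and 1.47 to 1.78 without each mouse. The brightest Paxip1 probe set was called with array weights (-1.07), the mean of all Paxip1 probe sets was called too (-1.47), and the brightest ranged from -1.11 to -0.80 without each mouse. Beyond their spread between mice, Slc16a1 moved to -0.45 as the mean of both probe sets, Slc16a3 to -0.30 on the 4 arrays and Pdha1 to 0.04 with centring. The causes were not tested.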
